A study of Mus musculus with 20 samples.

Results

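The genes described here encode 9 proteins of polyamine and arginine metabolism, read in mouse kidney after ischemia, preconditioning or hemin. They were selected by name from the array annotation (Odc1, Amd1, Srm, Oaz1, Sat1, Smox, Abp1, Ass1 and Gatm), by a rule that uses no measured value, although earlier results of these data were known when they were chosen. All 9 names were found among the 27827 gene names of the array, on 15 of its 41174 probes. Agilent whole-genome arrays were hybridized with total kidney RNA of male C57BL/6 mice aged 8 to 12 weeks, and each of 5 groups had 4 arrays. Control mice had no ischemia, preconditioning or hemin. In the IRI group (ischemia-reperfusion injury) the blood supply of both kidneys was clamped for 45 min, and tissue was taken after 6 h of reperfusion. IPC+IRI mice had also had 15 min of ischemia (ischemic preconditioning, IPC) 7 days before that injury. Hemin, an iron porphyrin that induces heme oxygenase 1, was given at 25 mg/kg 24 h before surgery in the IRI+Hemin group, and without ischemia in the Hemin group. No sham-operated group is named, so ischemia cannot be told apart from anesthesia and incision in comparisons with Control or of IRI+Hemin with Hemin. Nor can preconditioning be told apart from its earlier operation in IPC+IRI vs IRI.

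Polyamines (putrescine, spermidine and spermine) are small positively charged molecules that bind nucleic acids and are needed for growth and translation. Ornithine, made from arginine, is decarboxylated to putrescine, and aminopropyl groups made from S-adenosylmethionine lengthen putrescine to spermidine and spermine. Acetylation and oxidation run the chain backwards and release hydrogen peroxide and aldehydes, a branch that has been studied in injured kidney tubules. The proximal tubule is also where the body makes much of its arginine from citrulline and where arginine is turned into guanidinoacetate, the precursor of creatine.

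The 4 arrays of a group shared a slide with no other group, and slides were scanned on 3 days (Control and IRI on the first, IRI+Hemin on the second, IPC+IRI and Hemin on the last), so effects of slide and of group cannot be told apart. Of the pairwise comparisons below, only IRI vs Control lay within a scan day, so the others differ in scan day too. The share of genes well above background ran from 57.4% to 67.4% per array. It was lower in every IRI array (57.4% to 62.1%) than in any array of Control, IPC+IRI or Hemin. All 9 genes were well above background on all 20 arrays, and none of their spots was saturated. The tubule genes Lrp2, Slc34a1 and Umod were well above background on every array. Hmox1, which encodes heme oxygenase 1, stood at 0.96 to 2.14 in Control and at 1.69 to 2.2 in Hemin on the log2 scale used below, and these ranges overlapped, whereas it stood at 5.63 to 6.67 in IRI. Neutrophil markers (4 of 5 on the array, with S100a8 in Control, and Csf3r in Control, IRI and Hemin, well above background on fewer than 3 arrays) summed to between 0.3 and 0.659 in Control, 0.485 and 1.6 in Hemin, 2.48 and 8.07 in IRI, 2.19 and 9.45 in IRI+Hemin, and 6.33 and 19.2 in IPC+IRI, as linear multiples of an array's 75th percentile. The 5 macrophage markers (with Itgam well above background on fewer than 3 arrays in Control and in IRI) summed to 1.75 to 2.11 in Control, 1.87 to 1.96 in Hemin, 5 to 6.42 in IRI, 3.8 to 7.25 in IRI+Hemin and 2.59 to 6.55 in IPC+IRI. Single markers did not all move as these sums did. In IRI vs Control the log2 differences were 4.05 for S100a8 and 3.68 for S100a9, but -0.74 for Mpo, which was also lower in IPC+IRI (-0.75). Among macrophage markers they were 2.86 for Cd14 and 2.23 for Cd68. Csf1r (0.3) and Emr1 (-0.86) were not called at the threshold given below. What part neutrophils and macrophages had in the differences below was not tested. In whole tissue, fewer cells of a type cannot be told apart from less RNA per cell.

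Expression is given as log2 of a gene's signal over the 75th percentile of its array, so 0 lies at that percentile and 1 unit is a doubling. A gene was called at a Benjamini-Hochberg adjusted p below 0.05 in limma's test over all genes. After ischemia alone, 3 of the 9 genes rose (Smox, Sat1 and Srm) and 2 fell (Gatm and Amd1), where 17.1% of all genes tested rose and 33.9% fell. After preconditioning and ischemia, 4 were higher than in Control (the 3 that rose in IRI, and Abp1) and 2 were lower (Gatm and Ass1), against 23.2% and 32.8% of all genes. In Hemin vs Control, Gatm and Ass1 were lower, and 0 of the 9 genes were called higher by limma (1, Abp1, at an unadjusted p below 0.05), against 18.5% of all genes higher and 17.6% lower.

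**Figure D1:**
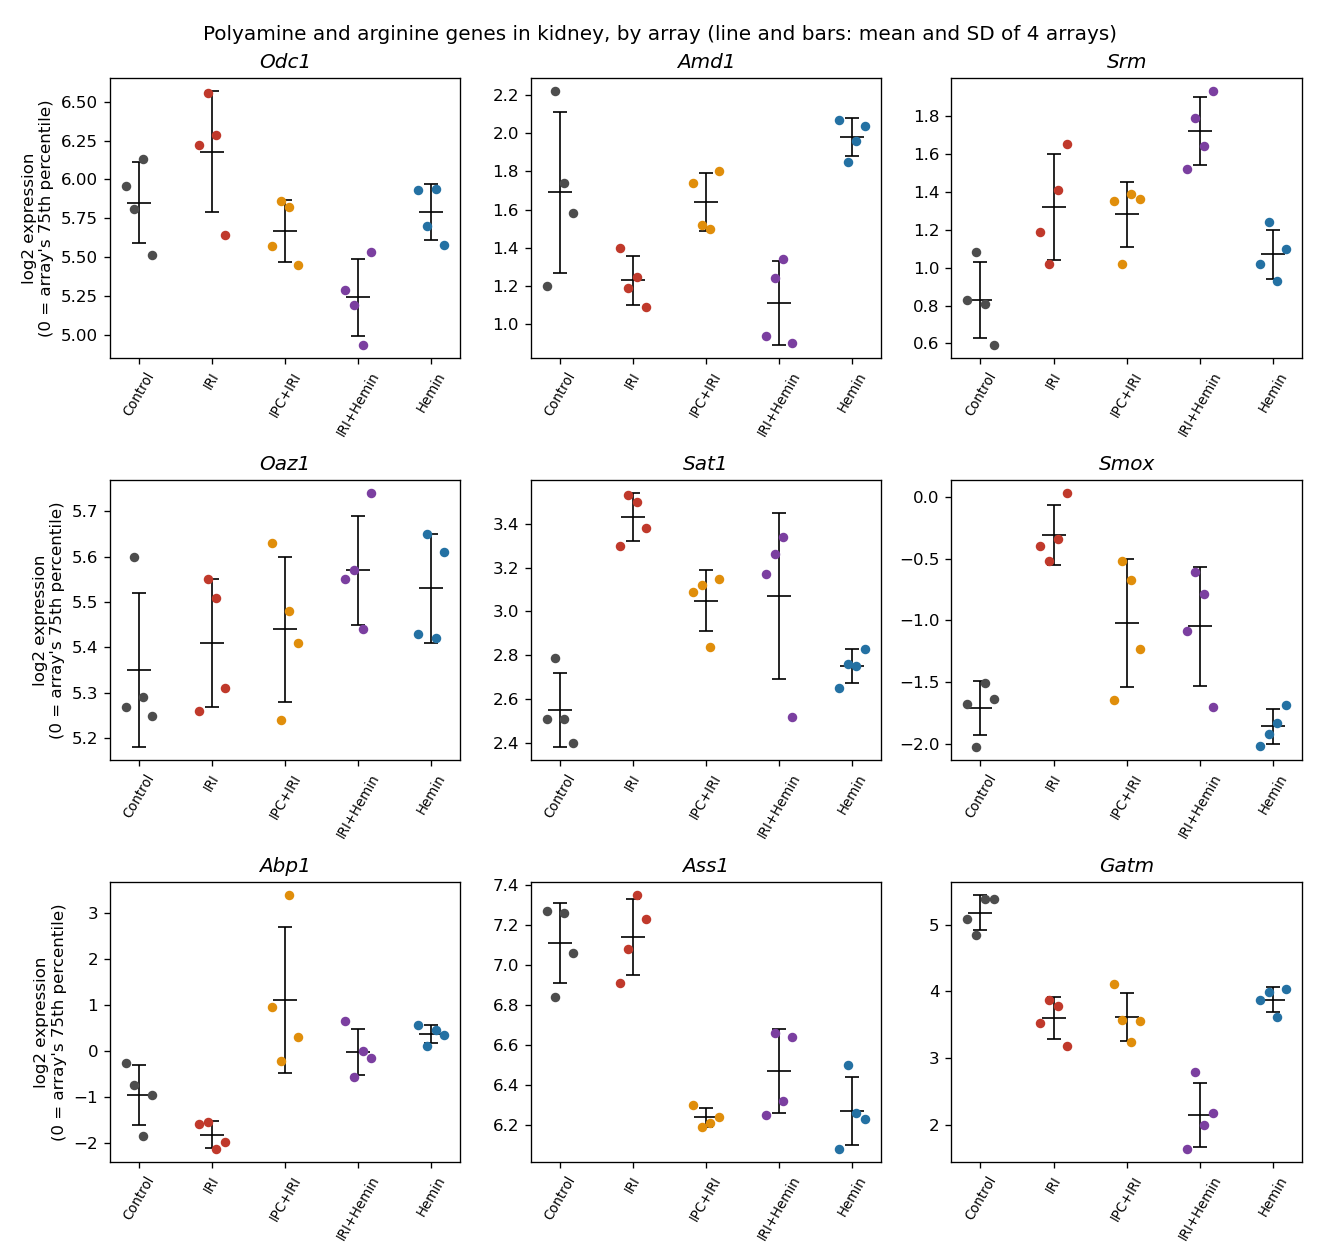
Log2 expression (vertical axis, 0 at the array's 75th percentile) of the 9 genes in each of the 20 arrays, by group; points are arrays, and the line and bars are the mean and SD of 4 arrays. Gatm was higher in every Control array than in any other array, and Ass1 was lower in every array of IPC+IRI, IRI+Hemin and Hemin than in any array of Control or IRI.

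Set against IRI, the preconditioned kidneys had 1 of the 9 genes higher (Abp1) and 4 lower (Ass1, Smox, Odc1 and Sat1), where 26.3% of all genes were higher and 17.8% lower. The kidneys given hemin before ischemia had 2 higher than IRI (Abp1 and Srm) and 4 lower (Gatm, Odc1, Smox and Ass1), against 26.3% higher and 18.1% lower. In IRI+Hemin vs Hemin, 2 genes were higher (Smox and Srm) and 3 lower (Gatm, Amd1 and Odc1), against 16.5% and 27.9%. Whether the hemin difference depended on ischemia was tested as an interaction, which was called, as lower, for Odc1 among the 9. This term was called higher for 5.84% and lower for 1.96% of all genes. These comparisons share arrays: IRI serves in 3 of the pairwise ones and Control in 3, so their results are not independent. For pairs of groups that did not overlap, the two-sided exact permutation test of 4 against 4 arrays gave 0.0286, the smallest p it can give, and 0.0643 after adjustment over 54 such tests.

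**Figure D2:**
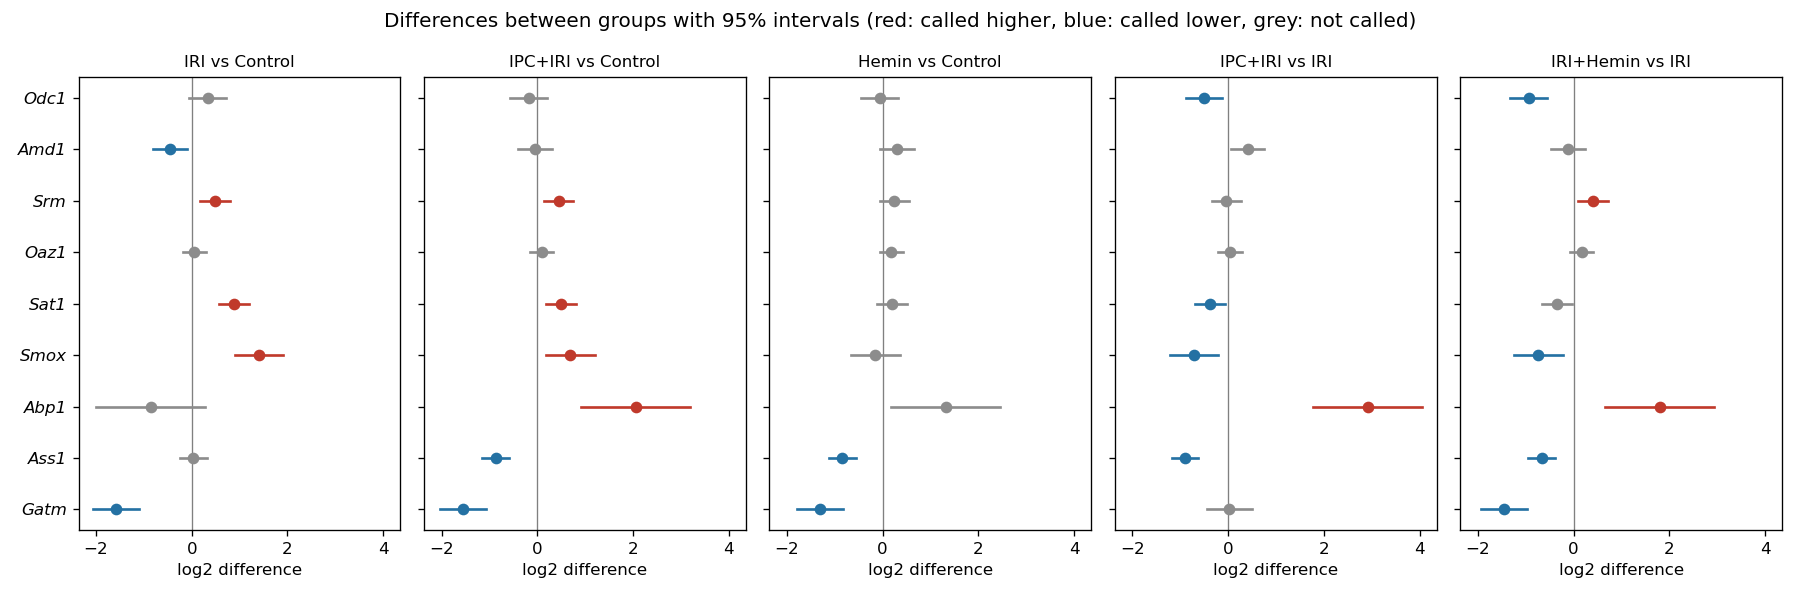
Log2 difference between group means (horizontal axis) with its 95% interval for the 9 genes in 5 comparisons; red was called higher, blue lower, and grey was not called. Gatm was called lower in all 3 comparisons with Control and in IRI+Hemin vs IRI, and Abp1 had the widest intervals.

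Gatm, glycine amidinotransferase, makes guanidinoacetate from arginine and glycine and releases ornithine. It stood at 5.09, 4.85, 5.38 and 5.38 in Control and at 3.87, 3.99, 3.62 and 4.04 in Hemin. IRI gave 3.53, 3.88, 3.78 and 3.19, IPC+IRI 4.11, 3.57, 3.24 and 3.56, and IRI+Hemin 1.64, 2.79, 2 and 2.18. The groups fell into 3 levels that did not overlap: Control on top, then Hemin, IPC+IRI and IRI together, and IRI+Hemin at the bottom. Against Control, Gatm fell by 1.58 in IRI (2.99-fold, SE 0.22, adjusted p = 1.87e-05), by 1.55 in IPC+IRI (2.94-fold, SE 0.23, adjusted p = 2.08e-05) and by 1.3 in Hemin (2.46-fold, SE 0.23, adjusted p = 0.000447). It was lower in IRI+Hemin than in IRI, with a log2 difference of -1.45 (2.72-fold, SE 0.23, adjusted p = 8.66e-05). Preconditioning gave no difference past the threshold against IRI (0.02, interval -0.45 to 0.5). These calls were kept in every alternative tried, though without normalization between arrays, which raised the median of all genes, the Hemin difference was -0.73. The 9 proximal tubule markers summed to 649 to 746 in Control, 504 to 739 in IRI, 575 to 678 in IPC+IRI, 488 to 1010 in IRI+Hemin and 627 to 675 in Hemin, so the IRI+Hemin arrays held both the lowest and the highest sum. Among these 9, limma called 3 lower in IRI vs Control (Slc5a12 -1.67, Lrp2 -0.95 and Cubn -0.54) and did not call 6, and their calls in the other comparisons are given with Ass1 below. What part tubule content had in the Gatm levels was not tested.

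Ass1, argininosuccinate synthase, starts the conversion of citrulline to arginine. Its 4 arrays read 7.27, 6.84, 7.26 and 7.06 in Control and 6.91, 7.08, 7.35 and 7.23 in IRI. They read 6.3, 6.19, 6.21 and 6.24 in IPC+IRI, 6.25, 6.66, 6.32 and 6.64 in IRI+Hemin, and 6.08, 6.5, 6.26 and 6.23 in Hemin. Control and IRI thus shared 1 level and the other 3 groups another, with no overlap between the 2 levels. Control and IRI were also the groups scanned on the first day, and the other 3 were scanned later. The 2 levels therefore cannot be told apart from scan day. Ass1 did not differ past the threshold between IRI and Control (0.03, interval -0.25 to 0.31). It was 1.83-fold lower in IPC+IRI than in Control (-0.87, SE 0.13, adjusted p = 2.81e-05), 1.79-fold lower in Hemin than in Control (-0.84, SE 0.13, adjusted p = 0.000215), and lower than in IRI by 1.87-fold in IPC+IRI and 1.59-fold in IRI+Hemin. Without normalization between arrays these 4 differences were -0.43, -0.28, -0.59 and -0.31, all still lower and none called. With normexp background correction IRI+Hemin vs IRI was -0.34 and not called, and in the deposited matrix IPC+IRI vs IRI was -0.45 and still called. Of the 9 proximal tubule markers, limma called 4 lower and 5 not in IPC+IRI vs Control, 2 lower and 7 not in Hemin vs Control, 3 higher and 3 lower in IPC+IRI vs IRI, and 3 higher and 2 lower in IRI+Hemin vs IRI. Slc34a1, a phosphate transporter, was lower in all 4, while Aqp1, a water channel, and Slc5a12, a lactate transporter, were higher in both comparisons with IRI. Their part in the Ass1 differences was not tested.

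Odc1, ornithine decarboxylase, makes putrescine and is usually named as the rate-limiting step. Control read 5.96, 5.81, 6.13 and 5.51, Hemin 5.93, 5.7, 5.94 and 5.58, and IRI 6.22, 6.56, 6.29 and 5.64. IRI+Hemin read 5.29, 5.19, 4.93 and 5.53, below every IRI and every Hemin array. IPC+IRI, at 5.57, 5.86, 5.82 and 5.45, overlapped each of the other 4 groups. Odc1 was 1.92-fold lower in IRI+Hemin than in IRI (-0.94, SE 0.18, adjusted p = 0.000538) and lower than in Hemin (-0.55, SE 0.18, adjusted p = 0.0208). The difference from IRI was -0.58, still called, without normalization between arrays, and -1.32 and not called in the deposited matrix, where the difference from Hemin was -1.61 and called. The call against Hemin was lost without IRI+Hemin replicate 3 (-0.45), Hemin replicate 1 (-0.5) or Hemin replicate 3 (-0.5). Hemin alone made no difference past the threshold (-0.06, interval -0.45 to 0.33), nor did IRI (0.33, interval -0.06 to 0.71), though the IRI difference was called without IRI replicate 4 (0.5). The interaction term was -0.88 (SE 0.26, adjusted p = 0.0454). It was no longer called when any 1 of 12 of the 16 arrays was left out (Control replicates 1, 2 and 4, and replicates 1 to 3 of IRI, IRI+Hemin and Hemin), with values from -0.91 to -0.75. IPC+IRI was lower than IRI (-0.5, SE 0.18, adjusted p = 0.032), a call lost without IRI replicate 1 (-0.49), 2 (-0.38) or 3 (-0.47), or without IPC+IRI replicate 1 (-0.47) or 4 (-0.43), and also with normexp (-0.32), without normalization (-0.19), with the brightest probe (-0.46), in the matrix (-0.05) and in the fit of the compared arrays alone (-0.5). Oaz1, the antizyme that binds ornithine decarboxylase and sends it to the proteasome, ranged from 5.24 to 5.74 over all 20 arrays, and its 5 groups overlapped. Its differences lay between -0.01 and 0.18 in the 7 comparisons and none was called by limma. Its difference between IRI+Hemin and IRI was called with normexp background correction (0.48) and in the deposited matrix (0.41), and without normalization between arrays it was called higher in IPC+IRI than in Control (0.53), in IRI+Hemin than in IRI (0.53) and in Hemin than in Control (0.74).

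Srm, spermidine synthase, read 0.83, 1.08, 0.81 and 0.59 in Control, and 1.19, 1.02, 1.41 and 1.65 in IRI. IPC+IRI read 1.35, 1.02, 1.39 and 1.36, Hemin 1.02, 1.24, 0.93 and 1.1, and IRI+Hemin 1.52, 1.79, 1.64 and 1.93. IRI+Hemin was the highest group and overlapped only IRI. Srm rose by 0.49 in IRI (1.4-fold, SE 0.14, adjusted p = 0.00825) and by 0.45 in IPC+IRI (1.37-fold, SE 0.14, adjusted p = 0.0123), and with normexp background correction these were 0.4 and 0.31 and not called. In the deposited matrix the IRI difference was 0.3 and not called. IRI+Hemin exceeded Hemin by 0.65 (SE 0.14, adjusted p = 0.0015) and IRI by 0.4 (SE 0.14, adjusted p = 0.029). The difference from IRI was not called without IRI replicate 1 (0.36) or 2 (0.3), or without IRI+Hemin replicate 2 (0.38) or 4 (0.33), nor with normexp (0.3) or in the fit of the compared arrays alone (0.4), and the difference from Hemin was not called without normalization (0.57). Odc1 was lowest in the group where Srm was highest.

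Amd1, S-adenosylmethionine decarboxylase, provides the aminopropyl donor for both synthases. Its values were 1.2, 2.22, 1.74 and 1.58 in Control, 1.4, 1.19, 1.25 and 1.09 in IRI, 1.74, 1.52, 1.5 and 1.8 in IPC+IRI, 0.94, 1.24, 1.34 and 0.9 in IRI+Hemin, and 2.07, 1.85, 1.96 and 2.04 in Hemin. Both groups with ischemia and no preconditioning were low, and the Control arrays spread widely. IPC+IRI exceeded IRI by 0.41 without overlap (SE 0.16, limma adjusted p = 0.0528), which was not called. The probes of Amd1 were called in opposite directions in that comparison, as given below. Amd1 was lower in IRI than in Control (-0.45, SE 0.16, adjusted p = 0.0281), a call that ended without Control replicate 2 (-0.27) or 3 (-0.44) or IRI replicate 2 (-0.44) or 4 (-0.41), with normexp (-0.46), without normalization between arrays (-0.33) and in the fit of the compared arrays alone (-0.45). It was 1.83-fold lower in IRI+Hemin than in Hemin (-0.87, SE 0.17, adjusted p = 0.000431), and leaving out any 1 array did not end that call.

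Sat1, spermidine/spermine N1-acetyltransferase, opens the way back from spermine and spermidine. It read 2.51, 2.79, 2.51 and 2.4 in Control and 3.3, 3.53, 3.5 and 3.38 in IRI, with no overlap. IPC+IRI read 3.09, 3.12, 2.84 and 3.15, and Hemin 2.65, 2.76, 2.75 and 2.83. IRI+Hemin read 3.17, 3.26 and 3.34 in replicates 1 to 3 and 2.52 in replicate 4. Sat1 was 1.84-fold higher in IRI than in Control (0.88, SE 0.15, adjusted p = 9.13e-05) and 1.42-fold higher in IPC+IRI (0.5, SE 0.15, adjusted p = 0.00753). The IRI call was lost in the deposited matrix (0.3), and the IPC+IRI call there (0.45), with quantile normalization (0.34) and with the brightest probe (0.47). IPC+IRI was lower than IRI (-0.38, SE 0.15, adjusted p = 0.0453), and this call was lost on leaving out any 1 of the 8 arrays other than IRI replicate 1, with values of -0.41 to -0.3. It was also lost with normexp (-0.27), without normalization between arrays (-0.06), with the brightest probe (-0.45), with the mean of log2 values over probes (-0.31) and with no filter on dim genes (-0.38), and turned to 0.15 in the deposited matrix. IRI+Hemin differed from IRI by -0.35 (SE 0.15, adjusted p = 0.0569), which was not called. It was called lower with quantile normalization (-0.43), the percentile of detected probes (-0.39) or the brightest probe (-0.73), and without IRI+Hemin replicate 2 (-0.42) or 3 (-0.44), and was above 0 without normalization (0.01) and in the matrix (0.1). Without IRI+Hemin replicate 4, the array that stood low, it was -0.17. Over all genes this array was also the dimmest of its group, with a 75th percentile of 173.8 against 251.4 to 357.9. Its share of genes well above background was 60.2%, against 64.7% to 66.5%. That array decided another comparison: IRI+Hemin exceeded Hemin by 0.32 (adjusted p = 0.0832) with it and by 0.51, called, without it. The mean of log2 values over probes also called it (0.4).

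Smox, spermine oxidase, turns spermine straight back into spermidine and releases hydrogen peroxide and an aldehyde. It read -1.68, -2.03, -1.51 and -1.64 in Control and -0.4, -0.52, -0.34 and 0.03 in IRI. Hemin read -2.02, -1.92, -1.83 and -1.69. Ischemia after preconditioning gave -1.65, -0.52, -0.67 and -1.23, and ischemia after hemin -1.09, -0.61, -0.79 and -1.7. Both groups thus spread upward from the Control range, and neither overlapped IRI. The highest IPC+IRI array lay just below the lowest IRI array, both being -0.52 when rounded. Smox was 2.65-fold higher in IRI than in Control (1.41, SE 0.24, adjusted p = 1e-04). This difference was 0.89 with normexp and 2.13 with the mean of log2 values over probes, both called, and 0.49 and not called in the deposited matrix. Smox was lower than in IRI both in IPC+IRI (-0.71, SE 0.24, adjusted p = 0.0212) and in IRI+Hemin (-0.74, SE 0.24, adjusted p = 0.0171). The first call ended without IRI replicate 4 (-0.6) or IPC+IRI replicate 1 (-0.5) or 4 (-0.64), and the second without IRI replicate 4 (-0.63) or IRI+Hemin replicate 4 (-0.52). Without normalization between arrays neither was called (-0.39 and -0.38). The first was not called in the fit of the compared arrays alone (-0.71), nor the second with the mean of log2 values (-0.4) or in the matrix (-0.76). Its excess over Control in IPC+IRI, 0.69 (SE 0.24, adjusted p = 0.0189), was not called without Control replicate 2 (0.59) or IPC+IRI replicate 2 (0.53) or 3 (0.58), nor with normexp (0.36), the percentile of detected probes (0.58) or the brightest probe (0.26), and turned to -0.31 in the deposited matrix.

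Abp1 (Aoc1 in RefSeq), the diamine oxidase that breaks down putrescine and histamine, had the widest spread. It read -0.27, -0.74, -1.86 and -0.95 in Control and -1.59, -1.55, -2.14 and -1.98 in IRI, which overlapped. Hemin read 0.56, 0.11, 0.45 and 0.34, IRI+Hemin 0.65, -0.56, 0 and -0.15, and IPC+IRI 0.96, -0.22, 3.38 and 0.29. Every array of these 3 groups lay above every IRI array. Abp1 was 7.56-fold higher in IPC+IRI than in IRI (2.92, SE 0.53, adjusted p = 0.000336) and 4.16-fold higher than in Control (2.06, SE 0.53, adjusted p = 0.00329). Without IPC+IRI replicate 3 these differences were 2.16 and 1.3, both still called. IRI+Hemin exceeded IRI 3.48-fold (1.8, SE 0.53, adjusted p = 0.0109), and with normexp background correction by 1.13, which was not called. Hemin exceeded Control by 1.32 without overlap (interval 0.18 to 2.46, adjusted p = 0.0615), which was not called. It was called under 2 of 20 alternatives, the fit of the compared arrays alone among them. IRI vs Control was -0.86 (interval -2 to 0.27, adjusted p = 0.188), not called, and was called under 1 of 20 alternatives. The study itself listed Abp1 among its changed genes from these same arrays, so its calls are not independent evidence.

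Of the 9 genes, 6 had a pair of probes, and for 3 of these (Smox, Sat1 and Amd1) the probes of a pair were called in opposite directions in 1 comparison each. The first 30 bases of each such probe (60 bases long), as the array annotation gives them, are shown because the probes of a pair read different stretches of a gene. No base is marked. Positions are of build mm9.
Smox A_51_P372826, chr2:131350711-131350770, + strand: tgtctgtagaatggaattttaccttctgta
Smox A_52_P430194, chr2:131342844-131342903, + strand: attgcaaatctattttagatagaagtagca
Sat1 A_51_P348494, chrX:151650691-151650750, - strand: gggcctggtgcgcaaagggaagaaaagcaa
Sat1 A_52_P640282, chrX:151647564-151647594, - strand: agcagaatggaatgaaccatctatcatcaa
Amd1 A_51_P381763, chr10:40007422-40007481, - strand: taaattaagaatcctaatgttgagaattgc
Amd1 A_52_P484807, chr10:40008288-40008347, - strand: cttctgtggaagataaatgacaaaactgaa

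Smox A_52_P430194, annotated to the cDNA AK087437 and lying upstream of the probe for the RefSeq transcript, was not well above background on any Control array. It was well above background on all arrays of the other groups. Against Control it was at least 6.59-fold higher in IRI, at least 11.6-fold in IPC+IRI, at least 6.83-fold in IRI+Hemin and at least 2.26-fold in Hemin. These bounds take the higher of the Control signal and the lowest signal well above background on each Control array, and no p is given with them, since the probe could be tested only through the group where it was high. Between IPC+IRI and IRI the pair was called in opposite directions: A_52_P430194 was higher, by 0.82 (limma over probes, SE 0.27, adjusted p = 0.0182) and A_51_P372826 lower (-1.04, SE 0.26, adjusted p = 0.00346). The gene value is the mean of linear signals and is set mainly by the brighter probe, A_51_P372826. With the mean of log2 values over probes in its place, Smox differed between IPC+IRI and IRI by -0.11 and was not called. In IRI+Hemin vs IRI, A_51_P372826 was lower (-0.86, SE 0.26, adjusted p = 0.012), and A_52_P430194 differed by 0.05 (SE 0.27, adjusted p = 0.888).

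Sat1 A_51_P348494 lies nearer the start of the gene than A_52_P640282. In IRI+Hemin vs IRI the first was higher by 0.33 (SE 0.13, adjusted p = 0.0446) and the second lower (-0.73, SE 0.23, adjusted p = 0.0145). A_52_P640282 read 2.23 in IRI+Hemin replicate 4, and 3.6, 3.61 and 3.74 in replicates 1 to 3, and all 4 lay below the lowest IRI array at 3.87. Both probes were higher in IRI than in Control, by 0.75 (SE 0.13, adjusted p = 0.000131) and 0.92 (SE 0.23, adjusted p = 0.00278).

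Amd1 A_52_P484807 carries transcripts of both Amd1 and Amd2 in the array annotation, so what it reads is uncertain between these near-identical genes. It read -0.93, -0.65, -0.37 and -0.66 in Control, -1.06, -1.15, -0.95 and -1.18 in IRI, -2, -1.8, -1.92 and -1.8 in IPC+IRI, -3.17, -2.46, -2.67 and -2.79 in IRI+Hemin, and -1.4, -1.69, -1.44 and -1.49 in Hemin. The 5 groups did not overlap and ran from Control down through IRI, Hemin and IPC+IRI to IRI+Hemin. Against IRI it was lower in IRI+Hemin (-1.69, SE 0.14, adjusted p = 3.89e-07) and in IPC+IRI (-0.8, SE 0.14, adjusted p = 0.000205), and against Control it was lower in Hemin (-0.85, SE 0.14, adjusted p = 0.000284). A_51_P381763, the brighter probe, differed by -0.02 in the first of these (SE 0.17, adjusted p = 0.927) and was higher in the second (0.49, SE 0.17, adjusted p = 0.0264). In IRI vs Control both were lower, with differences of -0.43 and -0.45. With the mean of log2 values over probes, Amd1 as a gene was called lower in IRI+Hemin than in IRI (-0.86).

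Both Odc1 probes were lower in IRI+Hemin than in IRI, A_51_P291347 with a difference of -0.88 (SE 0.19, adjusted p = 0.00127) and A_52_P436238 with -1.52 (SE 0.22, adjusted p = 3.01e-05). The interaction term was called for the dimmer A_52_P436238 (-1.36, SE 0.31, adjusted p = 0.0109) and not for A_51_P291347 (-0.83, SE 0.27, adjusted p = 0.0703). The probe pairs of Ass1 and of Oaz1 gave the same calls in every comparison. Over the 6 genes with a pair and 7 comparisons, 27 of 42 pairs had the same call on both probes.

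**Figure D3:**
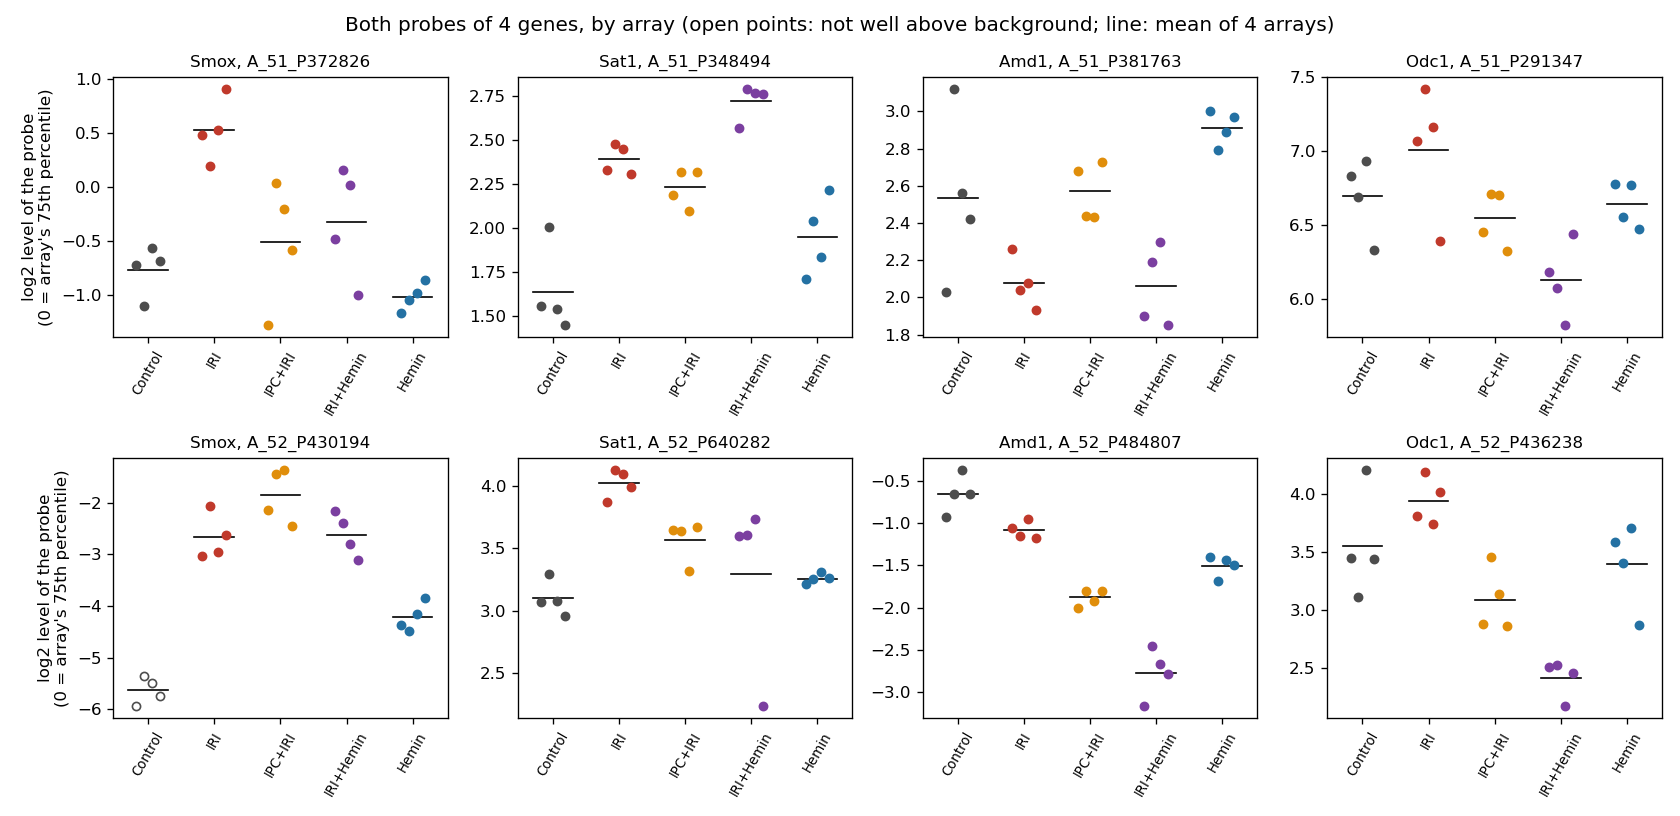
Log2 level (vertical axis, a scale of its own in each panel) of both probes of Smox, Sat1, Amd1 and Odc1, by group; points are arrays, open where the probe was not well above background, and lines are means of 4 arrays. In IPC+IRI the mean of Smox A_52_P430194 is its highest, -1.86, while that of A_51_P372826 is -0.51, below 0.53 in IRI.

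Other genes of these pathways were taken from 4 lists, 64 genes in all beside the 9, and all 64 were on the array. In IRI vs Control, 10 of the 56 tested rose and 12 fell, against 17.1% of all genes higher and 33.9% lower, and with a median difference of -0.09 where that of all genes was -0.174. In IRI+Hemin vs IRI, 11 of 56 were higher and 11 lower (median 0.05, against 0.082 for all genes), where 26.3% and 18.1% of all genes were so, and in Hemin vs Control 12 of 58 were higher and 6 lower (median 0.11, against 0.057), where 18.5% and 17.6% of all genes were so. In IPC+IRI vs Control 11 of 57 were higher and 16 lower (23.2% and 32.8% of all genes), in IPC+IRI vs IRI 4 of 57 were higher and 13 lower (26.3% and 17.8%), and in IRI+Hemin vs Hemin 9 of 58 were higher and 21 lower (16.5% and 27.9%). No difference between these genes and all genes was tested. The counts of each list below are to be set against these shares. Leaving out Control replicate 3 or 4 gave 7 higher in Hemin vs Control, and leaving out IRI+Hemin replicate 3 or Hemin replicate 2 gave 13 lower in IRI+Hemin vs Hemin.

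Among 13 other polyamine pathway genes tested after ischemia, 3 rose and 2 fell. Azin1, the antizyme inhibitor that frees ornithine decarboxylase, rose by 0.61 (SE 0.11, adjusted p = 0.000249), and Dhps, which starts the spermidine-dependent hypusine modification of Eif5a, rose by 0.42 (SE 0.1, adjusted p = 0.00252). Agmat, which makes putrescine from agmatine, was lower (-0.6, SE 0.21, adjusted p = 0.0217), as was Sat2 (-0.33, SE 0.13, adjusted p = 0.0412). Between IRI+Hemin and IRI the list had 3 of 12 higher and 2 lower: Agmat was higher (0.78, adjusted p = 0.00585), and Eif5a (-0.73, adjusted p = 7.99e-05) and Dhps (-0.42, adjusted p = 0.00314) were lower. Amd2 was also higher there (0.67, adjusted p = 0.00323). Its probe A_52_P337297 shares transcripts with the Amd1 probe A_52_P484807, which was lower in that comparison (-1.69). Which of the genes either probe reads is therefore uncertain. Hemin alone had 3 of 13 higher and 2 lower, among them Paox, the oxidase of acetylated polyamines (0.59, adjusted p = 0.0179), Oaz2 (0.49, adjusted p = 0.0112), Eif5a (-0.5, adjusted p = 0.00283) and Eif5a2 (-0.34, adjusted p = 0.0166).

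Of 16 other arginine and creatine genes tested after ischemia, 3 rose and 4 fell. Nos3, the endothelial nitric oxide synthase, rose by 2.01 (SE 0.21, adjusted p = 6.03e-07), and the study also listed it from these arrays. Nos1, the neuronal form, was lower (-1.22, SE 0.25, adjusted p = 0.000549). Aldh18a1, which makes the precursor of proline and ornithine from glutamate, rose by 1.14 (SE 0.3, adjusted p = 0.00449), and Oat, ornithine aminotransferase, was lower (-0.57, SE 0.12, adjusted p = 8e-04). Of 18 tested between IRI+Hemin and IRI, 3 were higher and 4 lower, with Nos1 higher (0.82, adjusted p = 0.0126) and Aldh18a1 (-1.12, adjusted p = 0.00657) and Aldh4a1 (-1.07, adjusted p = 0.000295) lower. Gls2, a glutaminase that the study also listed from these arrays, was not well above background on any Control or IRI array. It was at least 2.49-fold higher in IRI+Hemin than in IRI and at least 2.81-fold higher in Hemin than in Control. It passed the filter on dim genes only through the groups where it was high, so its place among the genes called higher in these comparisons rests on that selection, and no p is given. Hemin alone had 3 of 18 higher and 2 lower, with Aldh4a1 lower (-0.67, adjusted p = 0.0126).

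Of 16 transporters of cationic amino acids and polyamines, 4 rose and 5 fell after ischemia. Slc7a1, the system y+ arginine carrier, rose by 1.9 (SE 0.21, adjusted p = 1.45e-06), and Atp13a3, a polyamine-transporting ATPase, rose by 1.3 (SE 0.15, adjusted p = 2.24e-06). Slc7a7 (-0.76, adjusted p = 0.000265) and Slc7a9 (-0.66, adjusted p = 0.000548), light chains of the carriers that reabsorb cationic amino acids in the tubule, were lower. Of 15 tested between IRI+Hemin and IRI, 3 were higher and 3 lower: Slc7a7 (0.58, adjusted p = 0.00312) and Atp13a2 (0.47, adjusted p = 0.00524) were higher, and Slc7a1 (-0.77, adjusted p = 0.00688) and the creatine transporter Slc6a8 (-0.68, adjusted p = 0.00715) lower. Hemin alone had 3 of 16 higher and 1 lower. Slc7a3, which the study also listed from these arrays, was higher (1.17, adjusted p = 0.0189), although well above background on only 3 of 4 Control arrays. The mitochondrial ornithine carrier Slc25a15 was lower (-0.59, adjusted p = 0.0204).

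The methionine cycle and salvage list, which supplies and recycles S-adenosylmethionine, had 1 of 11 genes called after ischemia, as lower, where 33.9% of all genes were lower. That gene was Mtap, which recycles the methylthioadenosine left by polyamine synthesis (-0.71, SE 0.17, adjusted p = 0.00183). With hemin before ischemia, set against IRI, 2 of 11 were higher and 2 lower: Apip (0.88, adjusted p = 2.55e-05) and Mat2a (0.32, adjusted p = 0.034) were higher, and Adi1 (-0.91, adjusted p = 0.000226) and Mat2b (-0.85, adjusted p = 0.00496) lower, of which Apip and Adi1 act in the salvage of methionine. Hemin alone had 3 of 11 higher and 1 lower, with Mtr (0.74, adjusted p = 0.00157) and Bhmt (0.6, adjusted p = 0.0128), which both remethylate homocysteine, higher and Adi1 lower (-0.73, adjusted p = 0.00228).

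**Figure D4:**
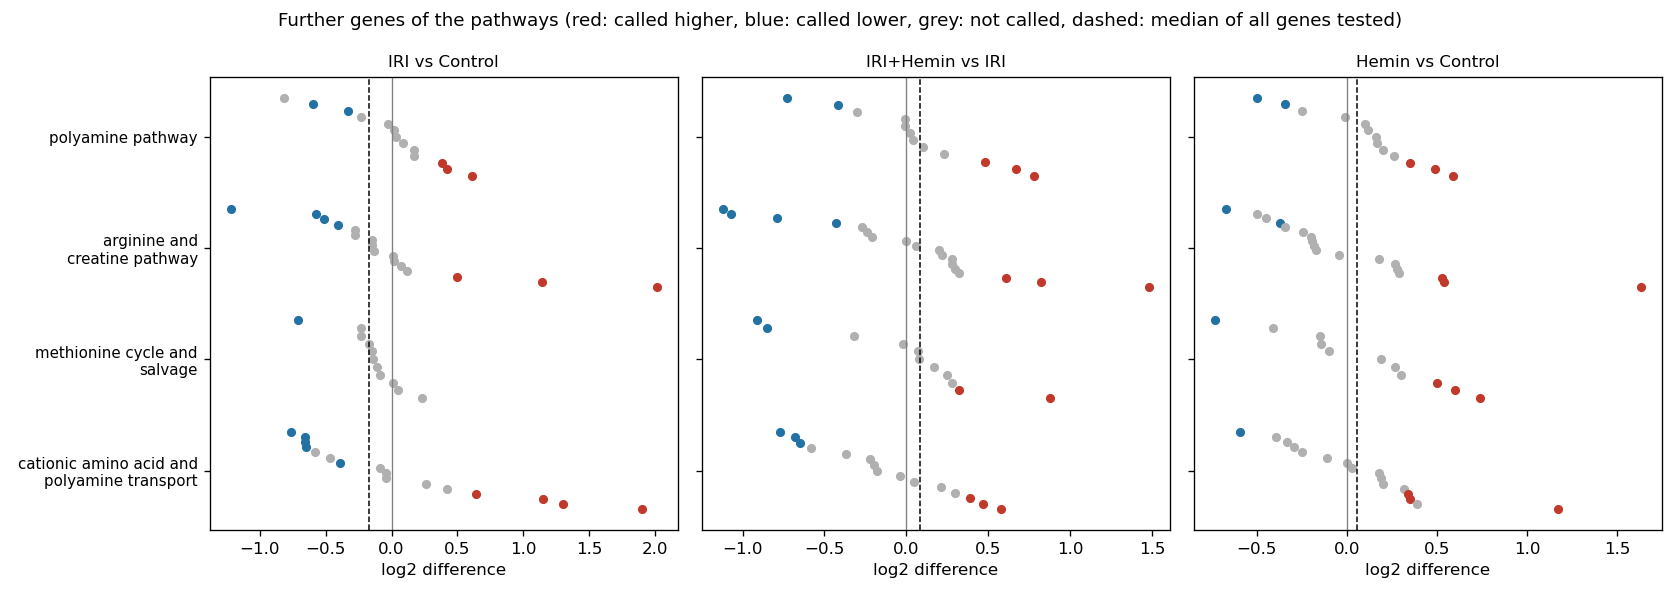
Log2 difference between group means (horizontal axis) of each tested gene of the 4 pathway lists, in 3 comparisons; each point is a gene, red was called higher, blue lower and grey not called, and the dashed line is the median of all genes tested. The points furthest right in IRI vs Control are Nos3 (2.01) and Slc7a1 (1.9).

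The genes whose 5 group means, each centered on their own mean, lay closest to those of 3 of the genes were sought among 10745 genes, as a description over 5 groups. For Odc1 these were Csnk1g3, Fer1l4 and Wdr5, with root mean square differences of 0.0507, 0.0565 and 0.0598 on the log2 scale. For Sat1 they were Atf5 (0.033), Acr (0.0411) and Ascc2 (0.0483). Gatm, with larger changes, had less close neighbors, among them Chrna4 (0.219) and Mc2r (0.326).

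Promoter sequence from RefSeq (build GRCm38.p6) was at hand for 8 of the 9 genes, and not for Srm. Windows from 250 bases before to 50 after the start were searched on both strands for 6 motifs. Of 32851 promoters, 7.81% held TGANTCA (the AP-1 motif), 1.79% held TGACGTCA (the cyclic AMP response element), 7.15% held CACGTG (the E-box), 12.4% held TGACNNNGC, 37.4% held CCAAT and 13.6% held TATAAA. Matches may overlap. TGACNNNGC, the core of the antioxidant response element, was found in Smox (first base at -193) and Oaz1 (-13). TGANTCA was found in 1 of 2 Abp1 entries (-131), CACGTG in Ass1 (-36), and CCAAT in Gatm (-190 and -55) and Oaz1 (-140), which also had TATAAA (-3). None of the 6 was found in Odc1, Sat1 or Amd1. The 250 bases before the start of the catabolic genes Smox and Sat1, both higher in IRI, are shown as an example with and without a match, which is in capitals.
Smox, chr2:131491612-131491861, + strand: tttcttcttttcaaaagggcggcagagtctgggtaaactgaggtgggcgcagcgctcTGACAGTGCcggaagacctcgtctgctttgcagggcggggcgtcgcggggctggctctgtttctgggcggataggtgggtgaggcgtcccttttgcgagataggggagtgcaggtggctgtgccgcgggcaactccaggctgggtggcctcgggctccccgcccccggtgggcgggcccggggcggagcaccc
Sat1, chrX:155216450-155216699, - strand: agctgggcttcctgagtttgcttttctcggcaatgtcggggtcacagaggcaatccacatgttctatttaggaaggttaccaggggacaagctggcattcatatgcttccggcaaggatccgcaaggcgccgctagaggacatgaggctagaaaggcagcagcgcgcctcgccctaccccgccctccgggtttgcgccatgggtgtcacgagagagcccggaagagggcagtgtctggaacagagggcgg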

How the data were processed

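Total RNA of 20 kidneys was hybridized to single-color Agilent 4x44K arrays. The deposited scanner files hold spot intensity from Agilent Feature Extraction 9.5.3.1, background-subtracted and detrended by that software, with probe positions on mm9. The authors also deposited a log2 matrix of the same arrays, used as an alternative only. Control spots were left out, spots and then probes of a gene name were averaged on the linear scale, and log2 of the signal over the array's 75th percentile was taken. Genes with at most 1 missing value and at least 3 arrays of a compared group well above background were tested. One linear model of all 20 arrays (limma 3.58.1, R 4.3.3; 15 residual degrees of freedom) gave two-sided tests, adjusted by Benjamini-Hochberg over all genes tested and called below 0.05. The study's own significance method was not run. Exact permutation tests compared 4 against 4 arrays. Figures were drawn with matplotlib 3.10.9. The script was tested on simulated data.

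The genes and lists were chosen with earlier results of these data known. Named from the wider lists were, in each list, the 2 most raised and the 2 most lowered genes among those called, for ischemia alone, for hemin before ischemia and for hemin alone. A few genes that these rules would name are not reported here, though the lists' counts may include them. The labels do not say that arrays of a group came from separate animals, so p-values measure the spread between these samples. The number of arrays limits the precision. Replicate numbers do not pair the arrays: 7 of 40 same-numbered pairs correlated above 0.1 (range -0.381 to 0.211). Alternatives changed the background correction, scaling, probe summary, filter, fold, source of values, arrays in the fit and replicate block.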

Additional observations from a re-analysis of the deposited data

Results flagged for a closer look

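Among 45 sets of 4 arrays (9 genes in 5 groups), 2 held an array far from the other 3 by Dixon's test. Chance gives such an array in about 1 set of 20. Oaz1 read 5.6 in Control replicate 2, with the other Control arrays at 5.25 to 5.29. Srm read 1.02 in IPC+IRI replicate 2, with the others at 1.35 to 1.39. Odc1 differed in its hemin effect between kidneys with and without ischemia, by an interaction term of -0.88 (SE 0.26, limma adjusted p = 0.0454). That call was lost under 20 of 28 alternatives, 12 of which each left out 1 of the 16 arrays.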

How the results depend on the processing

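Of 30 called differences of the 9 genes (the Odc1 interaction among them), 7 kept their call under every alternative (5 of Gatm and 2 of Abp1), and 23 lost it under at least 1. Among the alternatives, a fold of at least 2 ended every call smaller than 1 log2 unit by definition. A loss under that cutoff alone says nothing of the processing. For Amd1 in IRI+Hemin vs Hemin (-0.87) it was the only alternative, of 20, that ended the call. Of 25 pairwise differences that were not called, 15 were called under at least 1 alternative. The 8 interaction terms that were not called are not among these. The cause of these changes was not tested except where stated.

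Called differences turned sign only in the deposited matrix: IPC+IRI vs Control Smox (-0.31) and IPC+IRI vs IRI Sat1 (0.15). That matrix leaves blank Smox probes on 0 and 5 of 20 arrays, Sat1 probes on 1 and 3, Ass1 probes on 8 and 13 and the brighter Odc1 probe on 17, so a gene's mean holds different probes on different arrays. Other turns were of differences not called. In the matrix they were, for IRI vs Control, Odc1 -0.47 and Oaz1 -0.28; for IPC+IRI vs Control, Oaz1 -0.04; for IPC+IRI vs IRI, Srm 0.1; for IRI+Hemin vs IRI, Sat1 0.1 and Amd1 0.08; and for IRI+Hemin vs Hemin, Oaz1 -0.11. Without normalization they were Odc1 0.26 and Amd1 0.39 (IPC+IRI vs Control), Srm 0.28 (IPC+IRI vs IRI), Sat1 0.01 and Amd1 0.24 (IRI+Hemin vs IRI), Odc1 0.5 and Smox 0.42 (Hemin vs Control) and Oaz1 -0.04 (IRI+Hemin vs Hemin). With normexp they were Oaz1 -0.03 and Ass1 -0.05 (IRI vs Control) and Odc1 0.05 (Hemin vs Control). Quantile normalization gave Oaz1 -0.02 and Ass1 -0.01 (IRI vs Control), Oaz1 -0.11 (IPC+IRI vs Control), and Oaz1 -0.09 and Gatm -0.02 (IPC+IRI vs IRI). The 75th percentile of detected probes gave Oaz1 -0.03 and Ass1 -0.05 (IRI vs Control), Oaz1 -0.02 (IPC+IRI vs Control) and Gatm -0.01 (IPC+IRI vs IRI). The brightest probe gave Amd1 0.04 (IPC+IRI vs Control), and the mean of log2 values Amd1 -0.15 (IPC+IRI vs IRI), Amd1 -0.23 and Smox 0.58 (Hemin vs Control).

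Counts of the 9 genes moved by over 1.5 times as follows. In IRI vs Control (3 higher, 2 lower) the matrix gave 0 higher and a fold of at least 2 gave 1, and normexp, no normalization and the fold each gave 1 lower. In IPC+IRI vs Control (4 and 2), normexp, the brightest probe and the matrix gave 2 higher and the fold 1, and no normalization, the matrix and the fold gave 1 lower. In IPC+IRI vs IRI (1 and 4), no normalization, the brightest probe, the matrix, all arrays above background and the compared arrays alone gave 2 higher. There, normexp, the brightest probe, the mean of log2 values, the matrix and the compared arrays alone gave 2 lower, and no normalization and the fold 0. In IRI+Hemin vs IRI (2 and 4), normexp, the fold and the compared arrays alone gave 1 higher, while no normalization gave 2 lower and the matrix and the fold 1. In Hemin vs Control (0 and 2), no normalization gave 5 higher, and the mean of log2 values and the compared arrays alone 1, while no normalization and the fold gave 1 lower. In IRI+Hemin vs Hemin (2 and 3), no normalization and the fold gave 0 higher and the matrix 1, and the fold gave 1 lower. The Odc1 interaction was not called (0 genes lower) with normexp, no normalization, the percentile of detected probes, the brightest probe, the matrix, no filter, the fold or the compared arrays alone.

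With any 1 array left out, the count in IRI vs Control was 3 to 4 higher and 1 to 2 lower, and it was 3 to 4 and 2 in IPC+IRI vs Control, 1 to 2 and 1 to 3 in IPC+IRI vs IRI, 1 to 2 and 3 to 5 in IRI+Hemin vs IRI, 0 to 1 and 2 in Hemin vs Control, 2 to 3 and 2 to 3 in IRI+Hemin vs Hemin, and 0 to 1 lower in the interaction. Differences not called that turned sign ranged from -0.06 to 0.11 (Ass1, IRI vs Control), -0.21 to 0.13 (Amd1, IPC+IRI vs Control), -0.03 to 0.1 (Oaz1), -0.14 to 0.07 (Srm) and -0.14 to 0.15 (Gatm, all IPC+IRI vs IRI), -0.18 to 0.03 (Odc1, Hemin vs Control) and -0.01 to 0.09 (Oaz1, IRI+Hemin vs Hemin).

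Without normalization the median of all genes in Hemin vs Control rose from 0.057 to 0.622 and the share of calls that were higher from 51.3% to 94.7%. These shares rose from 41.5% to 75.1% in IPC+IRI vs Control, from 59.6% to 90.7% in IPC+IRI vs IRI and from 59.2% to 91.3% in IRI+Hemin vs IRI. Normexp moved the share from 33.5% to 56.2% in IRI vs Control. With a replicate block, the counts in IRI vs Control were 3 higher and 2 lower, and no call of the 9 genes changed. Only 2 of 20 arrays correlated best with their own number. Slide as a random block could not be fitted, because no slide held more than 1 group.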
